A study of Caenorhabditis elegans with 58 samples.

Results

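The 6 small RNA libraries of the C. elegans strain mir-35(seed_rev), 3 of embryos and 3 of first-stage larvae (L1), are described here beside the 6 wild-type libraries that carry the same stages and replicate numbers 1 to 3. These 12 libraries were taken by their titles from 58 in the series, of which 42 belong to an experiment on edited mir-35 alleles. The seed_rev strain is MCJ11 with genotype mir-35(cdb2 cdb4), and the wild type is N2. The labels do not say what cdb2 is, and every edited strain of the experiment carries it while wild type does not, so a difference from wild type is that of both alleles together. The label names the seed but does not give the edited sequence. All samples were whole hermaphrodite animals from bulk liquid culture, bleached to release embryos. Embryos were either collected or kept overnight without food, so the L1 samples are starved, synchronised larvae. The labels do not say whether replicates came from separate cultures, so p-values measure the spread between these samples, which may be technical. In whole-animal RNA, fewer cells of a type and less RNA per cell cannot be told apart.

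MicroRNAs are short RNAs that an Argonaute protein uses to find and repress messenger RNAs, mainly through the seed, a short stretch near the 5′ end. Each is cut from a hairpin as a duplex. One arm, the guide, stays in Argonaute, and the other, the passenger (marked with an asterisk), is usually degraded. The mir-35 family is abundant in embryos, is essential for embryonic development and declines sharply towards the first larval stage. The series title places the timed decay of this family, and its dependence on the seed, at the centre of the study. RefSeq (assembly WBcel235, used for names and order only) places all 8 family genes on chromosome II, and mir-35 to mir-41 are 7 neighbouring miRNA genes there. In seed_rev the mir-35 gene is the edited one, so its 6 cluster neighbours and mir-42 serve as unedited relatives in the same animals.

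Libraries held 8119831 to 19610926 miRNA counts. Levels are given as counts per 1000000 miRNA counts (CPM) after scaling by TMM, edgeR's trimmed mean normalisation, and n is 3 libraries per strain and stage. Embryo replicate 3 stood apart in both strains: family guides took 22.5% (wild type) and 25.5% (seed_rev) of its miRNA counts, against 38.1 to 44.3% in the other 4 embryo libraries. The stage labels were checked with lin-4_5p, the guide that times larval development, which stood at 0.222 to 0.739 CPM in seed_rev embryos and 4.33 to 8.44 CPM in seed_rev L1. The same range was 0.701 to 0.917 CPM in wild-type embryos and 5.81 to 13.1 CPM in wild-type L1.

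The strain label was checked with both arms of mir-35. The cdb4 guide separated seed_rev from wild type, with 1253358 to 1492502 counts in seed_rev embryos and 3224 to 7177 in wild-type embryos. In L1 it held 542598 to 781863 counts in seed_rev and 1980 to 2115 in wild type. The passenger was used to tell seed_rev from seed_rev_no_bulge, another edited strain, because their guide reads were shared. Guide reads of seed_rev were split about evenly between the sequence listed for its allele cdb4 and that for cdb95, the allele of another strain, seed_rev_no_bulge, with a ratio of 0.856 to 1.067 in its 6 libraries, and both were joined here. The passenger of cdb4 held 4566 to 10897 counts in seed_rev embryos, and the passenger of cdb95 held 10 to 36. In seed_rev_no_bulge embryos the order was the opposite, with at most 465 counts of cdb4 and at least 1283 of cdb95, so the passengers separate the strains' embryos. In L1 the cdb4 passenger held 533 to 1126 counts in seed_rev and 139 to 712 in seed_rev_no_bulge. These overlap, so it alone does not separate these strains in L1. The cdb95 passenger held 5 to 8 counts in seed_rev L1 and 32 to 81 in seed_rev_no_bulge L1. Each strain also held some reads of the other's mir-35: the wild-type guide sequence had 2392 to 11744 counts in seed_rev embryos and 1353 to 1588 in seed_rev L1.

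The edited mir-35 guide was far more abundant than the wild-type guide in L1, and its level in embryos did not pass the test. In embryos it stood at 234868, 286667 and 149516 CPM in seed_rev replicates 1, 2 and 3, and at 142449, 150103 and 31507 CPM in wild type. The lowest seed_rev embryo library lay just under the highest wild-type one, so the groups overlapped, and replicate 3 was the low library in each. The embryo difference was log2 1.05 (SE 0.59, 95% interval -0.15 to 2.25, edgeR adjusted p = 0.662). In L1 the edited guide stood at 104820, 99646 and 89657 CPM, while the wild-type guide stood at 9330, 1907 and 1975 CPM. All 3 seed_rev L1 libraries were above all 3 wild-type ones, a separation that 3.93% of the 229 arms tested showed in either direction. The L1 difference was log2 4.48 (SE 0.68, interval 3.11 to 5.84, edgeR adjusted p = 1.04e-05), and the mean of the edited guide was 98041 ± 7708 CPM (SD, n = 3) against 4404 ± 4266. Both the embryo and the L1 difference compare different sequences. With cdb4 reads alone, without those listed for cdb95, the L1 difference was 3.46 (edgeR adjusted p = 7.43e-04). Among the 229 arms, edgeR called 2 between the strains in L1 (0.873%), both higher, and these were the guide and the passenger of mir-35. The unadjusted test passed no other arm in L1.

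**Figure D1:**
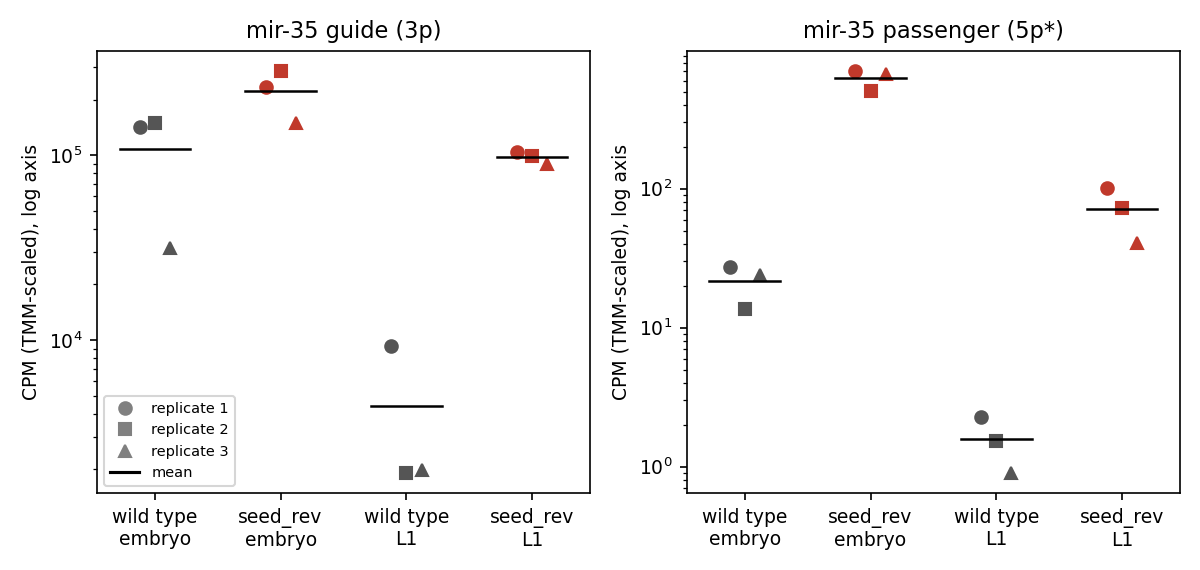
Levels of the mir-35 guide (left) and passenger (right) in CPM after TMM scaling, on log axes, for each of the 12 libraries. Circles, squares and triangles are replicates 1, 2 and 3, and bars are means of 3. In L1 the 3 seed_rev guides lie between 89657 and 104820 CPM and the 3 wild-type guides between 1907 and 9330.

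Between embryo and L1 the wild-type guide fell by 4.62 on the log2 scale (SE 0.68, edgeR adjusted p = 1.15e-06). The edited guide was at -1.19 (SE 0.59, interval -2.39 to 0.01, edgeR adjusted p = 0.104), which did not pass, although each seed_rev L1 library was below each seed_rev embryo library. Such a drop without overlap was shown by 33.2% of arms in seed_rev. Within each replicate number, 44.6, 34.8 and 60.0% of the embryo level of the edited guide remained in L1 (replicates 1, 2 and 3), against 6.55, 1.27 and 6.27% of the wild-type guide. Every seed_rev pair kept a larger percentage than every wild-type pair, a separation that 6.11% of arms showed in that direction. Number alone matches the seed_rev stages, since their same-numbered libraries correlated at only -0.06 to 0.07 in deviations from group means. The geometric means were 45.3 and 3.74% (exact two-sided permutation test p = 0.1, the smallest that 3 against 3 allows), and the wild-type mean was 6.41% without replicate 2.

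The difference between those changes is the test of whether the edited guide was lost less than the wild-type guide. It was log2 3.43 (SE 0.85, interval 1.70 to 5.15), with an unadjusted edgeR p of 2.68e-04 and an adjusted p of 0.0613, which did not pass. This main test does not use the pairing of the strains by replicate number, which the block settings below do. Of the 229 arms, edgeR called 0 (0.0%), 5 had an unadjusted p under 0.05 (2.18%), and DESeq2 called 1, this guide. It ranked first of 229 both by size and by p. The call turned on the setting: with libraries of neighbouring sample numbers as a block over the 42 libraries the value was 3.59 (edgeR adjusted p = 0.00792), and with replicate number as a block in the 12 libraries it was 3.41 (edgeR adjusted p = 0.0643). It also passed without wild-type L1 replicate 1 (4.64, edgeR adjusted p = 4.17e-04) and without wild-type embryo replicate 3 (3.96, edgeR adjusted p = 0.0117), and adjusted p-values over all alternatives ran up to 0.470.

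Under scaling by added spike-in RNA the direction turned: the edited guide in L1 was at log2 0.17 relative to embryos (edgeR adjusted p = 0.857) and 110.8% remained, against 5.79% in wild type. That scaling shifted the median over the 229 arms by 1.26 in the seed_rev stage comparison and by 0.56 in the wild-type one, and the strain difference in the change stayed on the same side at 4.16 (edgeR adjusted p = 0.0286). The mix of spike-ins was not constant, since 1 of them, mir166a, made up 40.5 to 79.4% of spike-in counts.

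The passenger of mir-35, the arm that is not retained in Argonaute, was also higher in seed_rev, but its stage change was not called different between strains. In embryos it stood at 705, 507 and 671 CPM in seed_rev, against 27.4, 13.6 and 24.0 CPM in wild type. In L1 the values were 102, 73.0 and 40.5 CPM against 2.27, 1.53 and 0.899 CPM, from 533 to 1126 counts in seed_rev and only 13 to 27 in wild type. The groups did not overlap in either stage, as for 26.2% of arms in embryos and 3.93% in L1. In embryos the difference was log2 4.86 (SE 0.71, edgeR adjusted p = 1.19e-05), and it was 5.52 in L1 (SE 0.75, edgeR adjusted p = 2.16e-06). It was the only arm of 229 that edgeR called in embryos (0.437%). Both values compare different sequences. Wild-type libraries also held reads at the cdb4 passenger, 320 to 684 counts in embryos beside 209 to 341 of their own passenger, and 150 to 258 in L1. Where those reads came from was not tested. With all allele sequences summed in every library the passenger differences were 2.89 for embryos, with an edgeR adjusted p of 0.139, and 1.76 for L1, with 0.997, so neither passed.

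The passenger fell between stages in both strains, by 3.13 on the log2 scale in seed_rev (SE 0.66, edgeR adjusted p = 1.59e-04) and by 3.78 in wild type (SE 0.70, edgeR adjusted p = 3.39e-05). In seed_rev 14.5, 14.4 and 6.04% remained in L1, and in wild type 8.31, 11.2 and 3.75%, ranges that overlap. The seed_rev values include any reads at the cdb4 passenger that wild type also held, 150 to 258 counts in L1. The difference between the changes was 0.66 (interval -1.11 to 2.42, edgeR adjusted p = 0.990). This interval overlapped that of the guide, and guide and passenger were not tested against each other. Summing all alleles turned the difference of 0.66 to -1.14.

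The ratio of guide to passenger counts of the edited gene, which needs no scaling between libraries, was higher in L1 than in embryos. In seed_rev there were 333, 566 and 223 guide counts per passenger count in embryos and 1028, 1365 and 2212 in L1. Each L1 library was above each embryo library. On the log2 scale the ratio went from 8.44 ± 0.67 (SD, n = 3) to 10.51 ± 0.56. In the 3 pairs, matched by number alone, the ratio changed by 1.27 to 3.31. In wild type it went from 12.04 ± 1.55 to 11.09 ± 0.86, with changes of -3.17 to 0.69. The mean changes differed by 3.02 (exact two-sided permutation test p = 0.1, the smallest possible), and the wild-type mean change of -0.95 became 0.16 without replicate 2. For each of the 7 other family genes the mean ratio declined in both strains, by 0.76 to 2.61 in seed_rev and by 0.92 to 3.30 in wild type.

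**Figure D2:**
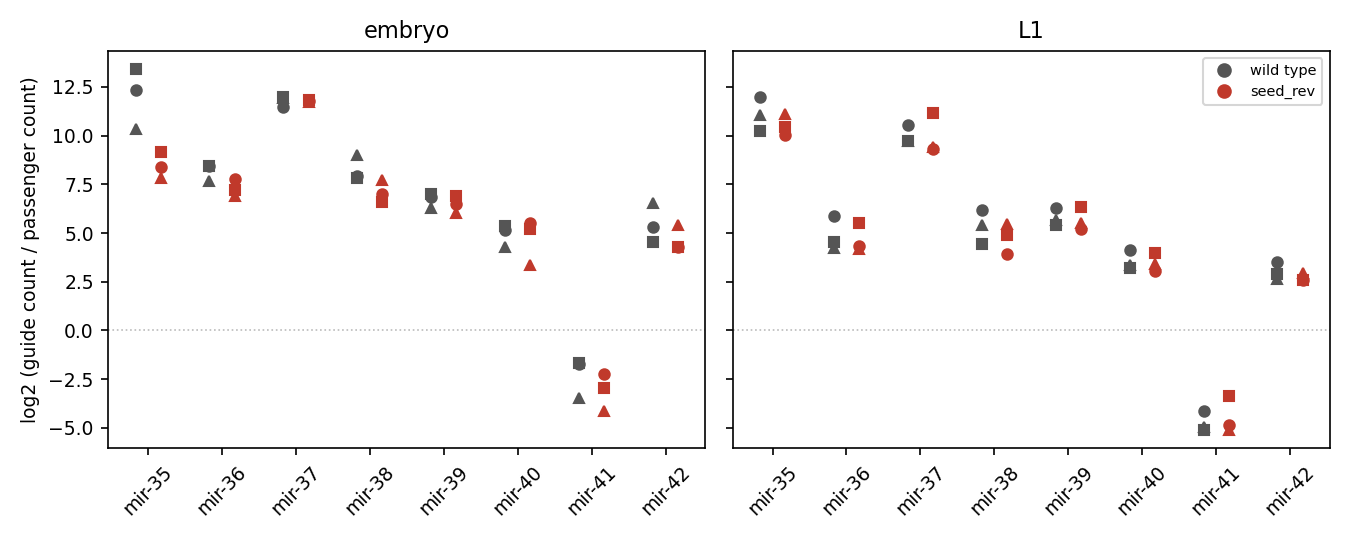
Log2 ratio of guide to passenger counts for each family gene in embryos (left) and L1 (right), with circles, squares and triangles for replicates 1, 2 and 3 of wild type (grey) and seed_rev (red). For mir-35 the seed_rev ratios average 8.44 in embryos and 10.51 in L1, while for mir-36 they average 7.28 and 4.67.

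The 7 unedited family guides fell between embryo and L1 in seed_rev and in wild type. In seed_rev mir-36_3p went from 20248, 16935 and 13993 CPM in embryos to 426.6, 389.9 and 190.5 CPM in L1. In wild type it went from 25572, 23028 and 15283 to 1115, 290 and 189 CPM, so the L1 groups overlapped, and wild-type replicate 1 was the high library. mir-37_3p, the most abundant unedited family guide in embryos, went in seed_rev from 143972, 107371 and 75417 to 1914, 1823 and 1522 CPM. All 7 fell between stages in both strains, by 1.96 (mir-42_3p) to 5.96 (mir-37_3p) on the log2 scale in seed_rev and by 2.23 to 5.80 in wild type. In all, edgeR called 47.2% of arms between stages in seed_rev and 41.9% in wild type. Under spike-in scaling 6 of the 7 guides still passed in seed_rev and mir-42_3p did not, at -0.49 (edgeR adjusted p = 0.625). Of mir-42_3p, the member outside the run of neighbouring genes, 20.1 to 45.8% remained in seed_rev pairs and 19.7 to 23.9% in wild type. For the 6 cluster neighbours 0.934 to 8.49% remained in seed_rev pairs and 0.525 to 8.19% in wild-type pairs.

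**Figure D3:**
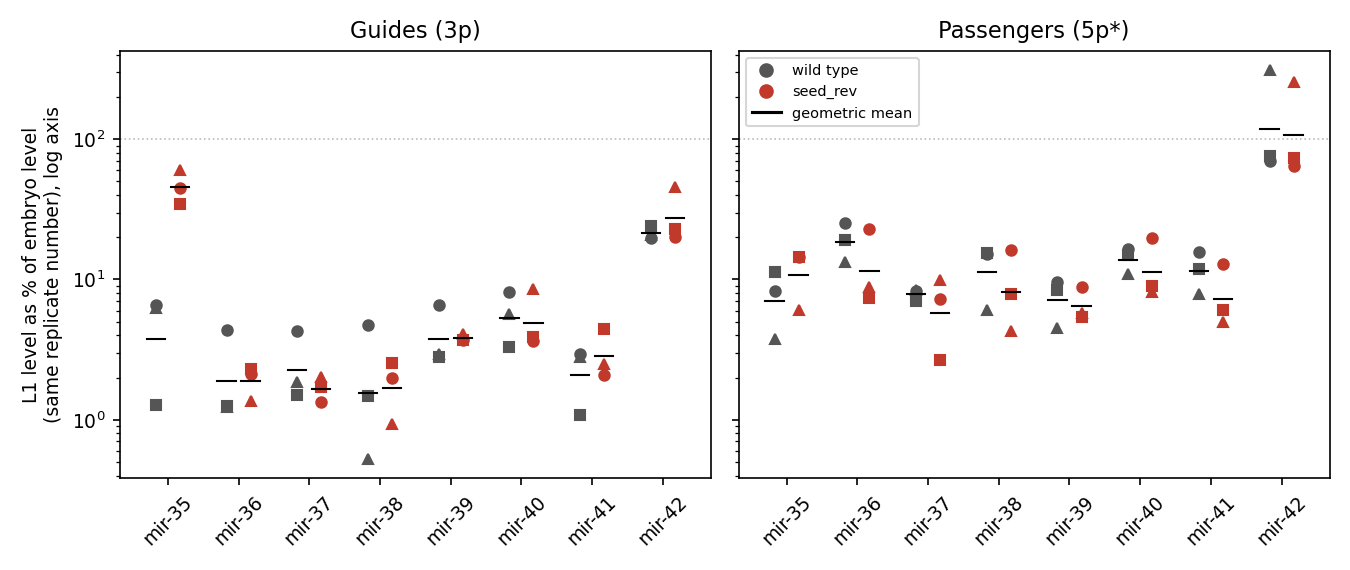
L1 level as a percentage of the embryo level with the same replicate number, on a log axis, for guides (left) and passengers (right) of the 8 family genes, with circles, squares and triangles for replicates 1, 2 and 3 and bars for geometric means. The edited mir-35 guide keeps 34.8 to 60.0% in seed_rev and the wild-type guide 1.27 to 6.55%. The strains overlap for every other arm shown.

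No unedited family guide was called between the strains. In L1 all 7 differences were below 0, from -0.04 (mir-41_3p) to -1.02 (mir-38_3p) with a mean of -0.52 (SD 0.32 over 7 guides), and the smallest unadjusted p was 0.0804. Wild-type L1 replicate 1 was the highest wild-type L1 library for each of the 7, though only slightly for mir-42_3p (879, 784 and 507 CPM). For mir-39_3p it stood at 6889 CPM, beside 2312 and 2124 in replicates 2 and 3, and seed_rev L1 at 3274, 2708 and 2297. The shared sign in L1 therefore leans on that library. In embryos the 7 differences ran from -0.88 to 0.01 with a mean of -0.36. The differences between the stage changes ran from -0.75 (mir-37_3p) to 0.40 (mir-41_3p) with a mean of -0.17 (SD 0.40). Their 95% intervals together spanned -2.36 to 1.84. The estimate of 3.43 for mir-35 lay above that span, but the interval of mir-35, given above, overlapped it. mir-35 was not tested against its relatives. The 8 family guides had a median of -0.17 in this comparison, beside -0.12 for all arms.

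Among the passengers of the unedited genes, 6 of 7 fell between stages in seed_rev and in wild type, and mir-42_5p* was called in neither. For mir-41, whose arm listed as the passenger was the more abundant arm in all 12 libraries, mir-41_5p* went from 1427, 1281 and 2100 CPM to 183, 77.8 and 105 CPM in seed_rev. None of the 7 unedited passengers was called between strains in any comparison. Their differences in stage change ran from -0.66 to -0.11.

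The make-up of the family differed between the strains in L1, with the edited guide counted as cdb4 and cdb95 reads joined. Family guides took 44.3, 40.5 and 25.5% of miRNA counts in seed_rev embryos and 41.3, 38.1 and 22.5% in wild-type embryos, with overlapping groups. In L1 they took 11.7, 11.6 and 10.7% in seed_rev and 3.35, 0.818 and 0.838% in wild type. All seed_rev L1 shares were above the wild-type ones, and the means were 11.3 ± 0.53% and 1.67 ± 1.46% (SD, n = 3, exact two-sided permutation test p = 0.1), the latter 0.828% without wild-type L1 replicate 1. The edited mir-35 made up 93.9 ± 0.49% of the family in seed_rev L1, against 29.4 ± 5.74% in wild-type L1. In embryos it made up 49.9 ± 5.77% in seed_rev and 28.1 ± 12.2% in wild type. The other 7 guides together took 0.689 ± 0.085% of counts in seed_rev L1 and 1.125 ± 0.893% in wild-type L1, with overlapping groups.

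Among all arms the edited guide, with cdb4 and cdb95 reads joined, ranked first by counts in all 3 seed_rev embryo libraries. It ranked second in all 3 seed_rev L1 libraries, behind the muscle miRNA mir-1_3p. The wild-type guide ranked 1, 1 and 10 in embryos and 22, 37 and 36 in L1.

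**Figure D4:**
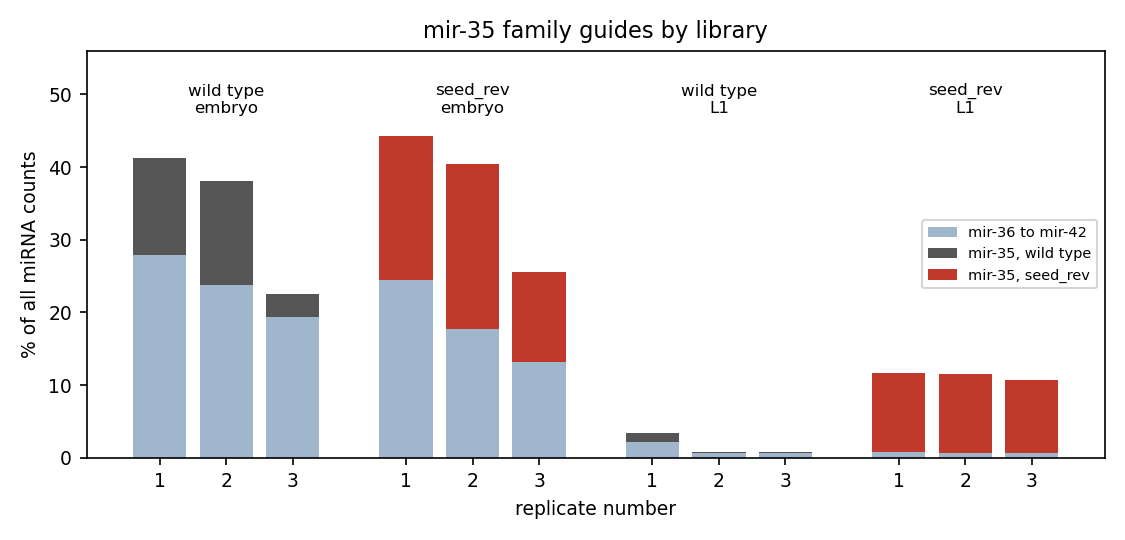
Share of all miRNA counts taken by mir-35 family guides in each of the 12 libraries, in percent, split into mir-35 (dark grey in wild type, red in seed_rev) and the 7 other guides (blue). In seed_rev L1 the family takes 10.7 to 11.7% and nearly all of it is mir-35, while in wild-type L1 it takes 0.818 to 3.35%.

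Over all 229 arms, the mir-35 family included, the estimated changes from embryo to L1 were similar in seed_rev and in wild type for most. In seed_rev 45 arms rose (19.7%) and 63 fell (27.5%), and in wild type 43 rose (18.8%) and 53 fell (23.1%). Of these, 36 rose in both strains, 80.0% of those in seed_rev and 83.7% of those in wild type. There were 49 that fell in both, 77.8% and 92.5% respectively, and 0 were called in opposite directions. The falls included 7 of 8 family guides and 7 of 8 family passengers in seed_rev, and 8 and 7 in wild type. Pearson's r of the stage changes across the 229 arms was 0.941 and Spearman's rho 0.927, as a description: arms are not independent replicates, and libraries share preparation and scaling. The median absolute difference between the strains' changes was log2 0.40, and 207 of 229 arms differed by less than 1. The split of rises and falls depended on scaling. It was 58 to 47 in seed_rev with plain library totals, which shifted the median arm by 0.40, and 55 to 18 with spike-in scaling.

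**Figure D5:**
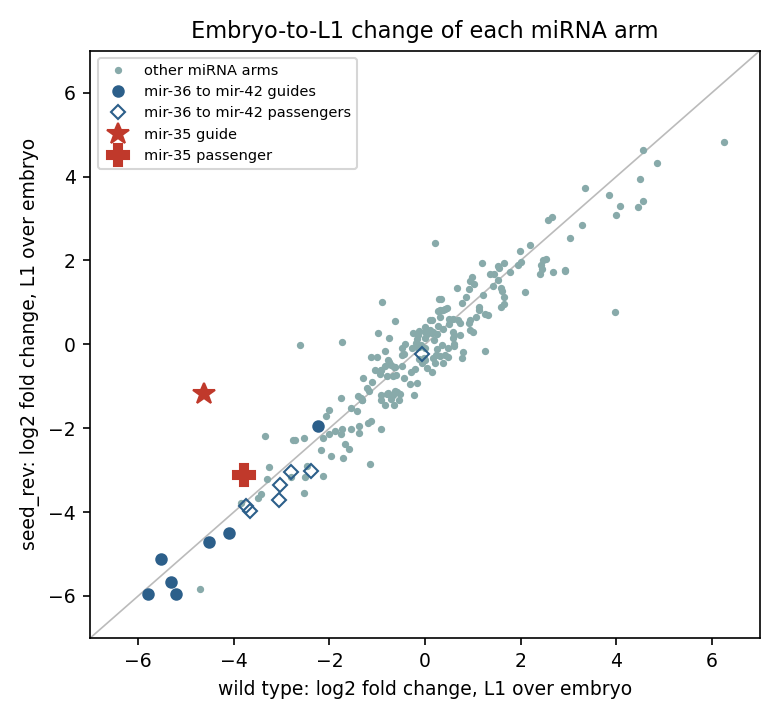
Log2 fold change from embryo to L1 in wild type (x axis) and seed_rev (y axis) for each of 229 miRNA arms, with the line of equal change. The mir-35 guide (star) lies at -4.62 and -1.19, off the line, and the mir-35 passenger (cross) at -3.78 and -3.13. Filled circles and open diamonds are the unedited family guides and passengers.

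Several well-expressed arms rose strongly in seed_rev, and each also rose in wild type. mir-71_5p, which promotes survival of starved L1 larvae, went from 3075, 6058 and 2055 CPM to 83448, 74230 and 67841 CPM, a rise of 4.33 (SE 0.86, edgeR adjusted p = 9.31e-05) beside 4.85 in wild type. No seed_rev embryo library came near the L1 libraries. mir-34_5p*, from a gene tied to stress responses, rose by 4.64 in seed_rev and 4.55 in wild type. Though listed as the passenger, it was the more abundant arm of mir-34 in wild type. In wild-type L1 it stood at 263 to 468 CPM, against 3.53 to 7.16 CPM for mir-34_3p. mir-84_5p, a relative of let-7, rose by 2.84 and 3.27, and mir-238_3p by 2.53 and 3.04. The others named by the rule, mir-230_3p, mir-83_3p, mir-63_3p, mir-60_3p, mir-1821_3p and mir-71_3p*, rose in seed_rev by 1.89 to 3.42. Of these, mir-230_3p rose by 3.42 beside 4.55 in wild type, mir-1821_3p by 1.89 beside 2.43, and mir-63_3p by 2.37 beside 2.19. mir-1821_3p did not pass in seed_rev without embryo replicate 3 of both strains (1.54, edgeR adjusted p = 0.0604).

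Among the falls of well-expressed arms outside the mir-35 family, mir-82_5p* was at -3.56, beside -3.44 in wild type, and mir-67_5p* at -3.21 beside -3.31. mir-4813_5p fell by 5.84 in seed_rev, from 344.6, 392.3 and 1040 CPM to 12.8, 12.5 and 5.86 CPM, and by 4.70 in wild type. mir-51_5p, of a large family with broad embryonic roles, fell by 2.03 and 1.75, and mir-44_5p* by 2.71 and 1.71. Under spike-in scaling mir-51_5p, mir-49_5p*, mir-54_5p*, mir-44_5p* and mir-73_5p* no longer passed in seed_rev, all still below 0.

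Family counts are read against the 19.7% of all arms that rose in seed_rev and the 27.5% that fell. Of the let-7 and lin-4 families, which time larval development, 4 of 8 tested guides rose in seed_rev (mir-84_5p, mir-794_5p, lin-4_5p and mir-237) and mir-48_5p fell, though under spike-in scaling mir-48_5p did not pass (-0.17). The median was 1.71, beside -0.11 for all arms, and the same counts held in wild type. let-7_5p itself was low in every library, at 0.616 to 3.28 CPM in seed_rev. Among 7 miRNAs of L1 survival and stress, 4 rose in seed_rev (mir-71_5p, mir-83_3p, mir-238_3p and mir-239a_5p), and mir-246_3p was called lower. The median of the 7 was 2.22. In wild type 3 were called higher and 0 lower, beside 18.8% and 23.1% of all arms. This list counts mir-34 by mir-34_3p, in wild type its less abundant arm, and leaves out mir-34_5p*, which rose in both strains. The call of mir-239a_5p held in 19 of 26 alternatives. It was lost without seed_rev embryo replicate 1 or 2 or seed_rev L1 replicate 3, with values down to 1.63 and edgeR adjusted p up to 0.195, and with spike-in scaling. The call of mir-246_3p held in only 10 of 26. It was lost with DESeq2 and with most single libraries left out (edgeR adjusted p up to 0.288), and spike-in scaling put it at 0.19.

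In the abundant mir-58 family 2 of 5 tested guides were called lower in seed_rev, in the mir-51 family 1 of 6 (mir-51_5p) and in the mir-44 family 1 of 4 (mir-247_3p). Counts this small lie near the 27.5% of all arms. Several of these calls rested on single libraries. Of the mir-58 family, mir-82_3p (-1.15) kept its call in 19 of 26 alternatives, with an edgeR adjusted p up to 0.204 when 1 library was left out. mir-2209a_3p (-1.329) kept it in 10 of 26, with an edgeR adjusted p up to 0.151 and a value of 0.06 with spike-ins. mir-247_3p kept it in 19 of 26, with values up to -0.80 and an edgeR adjusted p up to 0.249 when 1 library was left out. In the mir-44 family mir-44_3p and mir-45_3p share reads and are uncertain. In the mir-64 family mir-63_3p rose and mir-65_5p fell, though with spike-in scaling mir-65_5p was at -0.35 and did not pass. mir-64_5p (-1.05) kept its call in 17 of 26, with an edgeR adjusted p up to 0.199 when 1 library was left out and 0.15 on the log2 scale with spike-ins. None of the 4 tested mir-2 family guides was called in either strain. Of 6 miRNAs tied to EBAX-1, the ubiquitin ligase receptor used in target-directed miRNA decay, mir-247_3p and mir-788_3p were called lower in seed_rev, at -1.27 and -1.34 beside -1.35 and -1.32 in wild type. With spike-in scaling neither passed, and mir-788_3p did not pass without seed_rev L1 replicate 2 (-0.99, edgeR adjusted p = 0.0737).

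Of 9 marker miRNAs of tissues and stages, edgeR called 0 between the strains in embryos, in L1 or in the change. In embryos 1 had an unadjusted p under 0.05, and their median difference was 0.42 beside 0.07 for all arms. In L1 and in the change 0 had such a p. mir-1_3p of muscle stood at 110109, 127886 and 133603 CPM in seed_rev embryos and 77432, 67552 and 88930 CPM in wild-type embryos. Those groups did not overlap, as for 26.2% of all arms in embryos, and the difference of 0.67 did not pass (edgeR adjusted p = 0.655). In L1 the values overlapped, with a difference of 0.06. lsy-6_3p, of an ASE taste neuron, and mir-228_5p, of glia, differed by 0.16 and 0.42 in embryos and by -0.22 and -0.13 in L1, none called. mir-124_3p of sensory neurons rose between stages in seed_rev by 1.60 (edgeR adjusted p = 0.0345), with 0.98 in wild type, and the difference of 0.62 was not called. Its seed_rev call was lost without seed_rev embryo replicate 1 or 2 or seed_rev L1 replicate 3, at values down to 1.07 and edgeR adjusted p up to 0.216.

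Between the strains the embryo libraries differed more widely than the L1 libraries, though few arms passed. The median absolute difference was log2 0.42 in embryos and 0.16 in L1, and 60 arms in embryos (26.2%) and 9 in L1 (3.93%) had groups that did not overlap. At an unadjusted p under 0.05 there were 14 arms in embryos (6.11%) and 2 in L1. The embryo count was 23 without seed_rev embryo replicate 1, 4 with spike-in scaling, 48 with replicate number as a block in the 12 libraries, and 6 without embryo replicate 3 of both strains, the last chosen after seeing the data. The L1 count reached 6 without wild-type L1 replicate 3. mir-254_3p stood at 283, 541 and 990 CPM in seed_rev embryos and 212, 274 and 187 CPM in wild-type embryos, a difference of 1.43 (edgeR adjusted p = 0.205), without overlap. mir-57_5p, tied to posterior cell fates, was at 0.90 and mir-61_3p, which acts in vulval Notch signalling, at 0.72. Both were highest in seed_rev replicate 3. mir-67_3p was lower, at 20.3, 22.1 and 23.3 CPM against 41.3, 49.5 and 64.7 CPM, a difference of -1.24 (edgeR adjusted p = 0.613). With replicate number as a block in the 12 libraries, edgeR called 3 arms in embryos: the mir-35 passenger, mir-67_3p (-1.22, adjusted p = 0.0209) and mir-2208a_5p (2.17, adjusted p = 0.0276). mir-2208a_5p, singled out after its values were seen, stood at 10.2, 14.4 and 25.9 CPM in seed_rev embryos and 2.10, 4.14 and 4.99 CPM in wild type. mir-77_5p*, also singled out so, was at 0.400, 0.222 and 0.985 CPM in seed_rev embryos and listed at 0 in 2 of 3 wild-type embryo libraries. Its edgeR adjusted p was 0.118, and edgeR called it when all 6 wild-type libraries of each stage formed the wild-type group.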

How the data were processed

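Small RNAs were sequenced from whole animals, with the NEBNext small RNA kit in modified form per the labels' protocols. Per the submitters' processing notes the tools included Bowtie2 2.4.4, HTSeq 0.13.5, cutadapt 3.4, SAMtools 1.13 and DESeq2. The build was not given in the sources used here. The authors deposited estimated counts per miRNA arm, before scaling. Of these, 510 values in 129 of 296 lines end in 0.5, and all were rounded to whole counts. Whole counts had been assumed when the test was chosen, and it was kept.

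edgeR 4.0.16 (robust quasi-likelihood, TMM, filterByExpr with minimum count 10 and total 15, Benjamini-Hochberg, threshold 0.05) in R 4.3.3 was fitted over the 42 allele libraries, with 1 coefficient per strain and stage and wild-type replicates 1 to 3 and 4 to 6 kept apart. It tested 229 arms, and the common biological coefficient of variation was 0.448. The fitting code was tested on simulated data. Guide reads of mir-35 in seed_rev joined the cdb4 and cdb95 lines, passenger reads used cdb4 alone. Reads without molecular identifiers are not independent molecules, so counts carry more error than counting alone.

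Members and lists were chosen with earlier results of these data known. Named arms were the family, arms past the threshold, up to 10 rises and 10 falls of seed_rev with the largest change, no overlap and a mean of 5 or more on the log2 CPM scale, up to 5 higher and 5 lower arms per strain comparison at unadjusted p under 0.05 with that mean, and list members.

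Replicate numbers were checked for pairing by the correlation of deviations from group means. Same-numbered libraries of the 2 strains correlated at 0.285 to 0.661 in embryos and 0.485 to 0.700 in L1, all 3 pairs over 0.1 in each, so numbers pair the strains within a stage. The main edgeR test and the permutation tests did not use this pairing of strains, and the replicate blocks were run as alternatives. Wild-type stages correlated at 0.132 to 0.418, and seed_rev stages at -0.06 to 0.07, so the latter are not paired. Alternatives covered scaling, filtering, tool, wild-type libraries, blocks, mir-35 lines and left-out libraries. Sequences are not shown.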

Additional observations from a re-analysis of the deposited data

Results flagged for a closer look

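Reads of the other strain's mir-35 allele appeared in libraries that should lack it, outside the comparisons above. The cdb4 guide had at least 199 CPM, by plain library totals, in each wild-type embryo library of replicates 1 to 3 and at least 122.04 CPM in each L1 library. Wild-type replicates 4 to 6, which carry other sample numbers, had at most 181 and 46.4 CPM. The cdb95 guide likewise had at least 207 and 138 CPM in replicates 1 to 3, against at most 155 and 40.6 CPM in replicates 4 to 6. In seed_rev the wild-type guide had at least 2392 counts in each embryo library and at least 1353 in each L1 library. Their origin was not tested.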

How the results depend on the processing

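The L1 difference of the mir-35 guide passed in all 26 alternatives run, at 3.46 to 5.66, and its embryo difference in none (0.06 to 1.34). The difference in stage change stayed positive in all 26 and passed in 8. It was 3.46 with library totals (edgeR adjusted p = 0.0348), 4.16 with spike-ins (0.0286), 3.35 with DESeq2 (0.0153), 4.00 with all 6 wild-type libraries per stage (0.00106), 3.59 with the replicate block over 42 libraries (0.00792) and 3.46 with all alleles summed (0.0158), and 3.02 to 4.64 with 1 library left out. The count of arms called there was 1 in those 6 settings, and 0 to 1 with 1 library left out. Without embryo replicate 3 of both strains, an alternative added after seeing the data, the value was 3.74 (0.0701).

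Embryo calls numbered 2 with only the 12 libraries, 2 with all 6 wild-type libraries, 3 with the replicate block in 12 libraries and 0 with alleles summed. Leaving out 1 library gave 1 throughout. L1 calls numbered 1 with alleles summed. Neither replicate block ended the call of a named arm, and in the strain comparisons they added no call beyond those given. Wild-type stage calls numbered 51 with spike-ins (31 higher, 20 lower), and with library totals 55 rose and 45 fell. Summing alleles turned the passenger's change difference to -1.14. Spike-in scaling turned the seed_rev stage value of mir-35_3p to 0.17, mir-2209a_3p to 0.059, mir-246_3p to 0.19 and mir-64_5p to 0.15. It shifted the median of all arms by -0.56 between strains in embryos, 0.13 in L1 and 0.71 in the change. The cause of these moves was not tested.

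The percentage of edited guide remaining was 59.9 by plain share of counts and 110.8 with spike-ins, and 39.4 to 51.7 with 1 pair left out. Without mir-35 the family share was 18.4% in seed_rev embryos, 0.689% in seed_rev L1 and 23.7% in wild-type embryos. With the cdb4 line alone it was 6.20% in seed_rev L1. The wild-type change of the guide to passenger ratio was -1.77 to 0.16 with 1 pair left out. TMM factors of the 12 libraries were 0.793 to 1.28, inside the limits set, so the alternative without such libraries was not run. Of the 47 arms followed in the seed_rev stage comparison, 29 kept their call and direction in every alternative run. Low depth limits the wild-type passenger in L1, at 13 to 27 counts.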
